A study of Mus musculus with 6 samples.

Results

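Cholesterol synthesis and its control by SREBP were followed in 28 genes, chosen by name: 9 that make farnesyl and geranylgeranyl diphosphate and squalene from acetyl-CoA (the mevalonate steps), 11 that turn squalene into cholesterol (the post-squalene steps) and 8 that sense sterols or control or carry out the response to them. All 28 were found among the 53379 annotated genes and all 28 passed the filter on low counts, which left 14537 genes to test. RNA came from 6 cultures of organoids, kept in matrigel domes, from pancreatic tumours of C57/Bl6 mice. Every culture carried Pdx1-Cre, a Cre recombinase under a promoter of the embryonic pancreas that switches on the Trp53 R172H allele. In the heterozygous group (n = 3, genotype Trp53LSLR172H/+) the titles give R172H beside a wild-type Trp53 allele, and in the group with loss of heterozygosity (LOH, n = 3, Trp53LSLR172H/-) the wild-type allele is lost. The titles number the organoid lines 6, 23 and 34, and each line gave 1 library per genotype. No label says whether a library is 1 clone or a mixed culture. A suffix in the descriptions of all 3 LOH libraries is left unexplained by the labels, and whatever it stands for cannot be told apart from the genotype. The spread behind the p-values below is that between the 3 lines of a group. Where the line is a block, it is the spread of the differences within lines. In bulk RNA fewer cells of a type cannot be told apart from less RNA per cell.

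Cells build cholesterol from acetyl-CoA through mevalonate, then through isoprenoid diphosphates that also feed protein prenylation, and finally through squalene and a series of ring-modified sterols. The transcription factors SREBP1 and SREBP2 (genes Srebf1 and Srebf2) are made as membrane proteins that the escort protein Scap carries from the endoplasmic reticulum to the Golgi, where the proteases encoded by Mbtps1 and Mbtps2 release the active part. Insig1 and Insig2 hold Scap in the endoplasmic reticulum when sterols are plentiful. Most enzymes of the pathway are SREBP2 targets. Mutant p53 has been described as a partner of SREBP2 on mevalonate genes in other tumour cells, and wild-type p53 as a restraint on SREBP2, so the comparison asks whether the pathway's transcripts depend on the wild-type allele.

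The 4 promoter stretches printed here were picked from these same results. Insig1 and Insig2 are paralogs whose shares of their joint level did not overlap between the groups, which also held for Tm7sf2 and Lbr. Hmgcs1 and Idi1 had ratios in the same order over the lines, an order shared by Ggps1, Mbtps2, Srebf2 and Stard4. Each run is the 250 bases before a RefSeq start site in GRCm38.p6, 5′ to 3′ on the strand of the gene, with capitals at TCACNCCAC (a form of the sterol response element), CCAAT (bound by NF-Y) and CACGTG (an E-box), on either strand.
Hmgcs1, chr13:119690101-119690350, plus strand: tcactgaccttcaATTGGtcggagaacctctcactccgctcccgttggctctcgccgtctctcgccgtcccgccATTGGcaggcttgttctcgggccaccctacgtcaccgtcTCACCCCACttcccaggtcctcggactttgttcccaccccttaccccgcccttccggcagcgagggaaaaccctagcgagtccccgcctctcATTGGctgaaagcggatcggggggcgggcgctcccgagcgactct
Idi1, chr13:8885356-8885605, plus strand: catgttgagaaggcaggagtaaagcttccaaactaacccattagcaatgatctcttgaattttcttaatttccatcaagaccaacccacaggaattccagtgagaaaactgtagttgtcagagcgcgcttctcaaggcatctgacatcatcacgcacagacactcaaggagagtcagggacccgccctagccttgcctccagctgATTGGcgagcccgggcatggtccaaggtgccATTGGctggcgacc
Insig1, chr5:28071162-28071411, plus strand: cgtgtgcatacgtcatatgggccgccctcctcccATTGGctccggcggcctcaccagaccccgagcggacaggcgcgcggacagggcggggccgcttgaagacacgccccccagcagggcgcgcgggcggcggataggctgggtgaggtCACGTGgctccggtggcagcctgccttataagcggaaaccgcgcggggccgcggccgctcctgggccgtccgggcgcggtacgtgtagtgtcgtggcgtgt
Insig2, chr1:121328025-121328274, minus strand: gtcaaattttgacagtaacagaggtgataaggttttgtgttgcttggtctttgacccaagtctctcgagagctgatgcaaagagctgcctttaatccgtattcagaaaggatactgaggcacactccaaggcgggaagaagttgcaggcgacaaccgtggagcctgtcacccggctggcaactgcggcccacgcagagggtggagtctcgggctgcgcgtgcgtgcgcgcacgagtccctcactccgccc
RefSeq promoters were matched by symbol for 24 of the 28 genes; Fdps, Fdft1, Sqle and Stard4 had no entry. CCAAT lay in the window of 20 of these 24 genes (83.3%), among them 10 of 10 post-squalene, 6 of 7 mevalonate and 4 of 7 SREBP genes. Over all 32851 promoters 33.8% held it, as did 40.9% of the 10100 tested genes that could be matched. TCACNCCAC was found in Hmgcs1 alone (1 of 24, against 1.05% of all promoters and 1.23% of matched tested genes) and CACGTG in 5 of 24 (Dhcr7, Hsd17b7, Insig1, Sc5d and Scap, against 6.02% of promoters and 9.98% of matched tested genes). The Sp1 box GGGCGG was present in 21 of 24, against 32.7% of promoters and 64% of matched tested genes. ATTGG in capitals is CCAAT on the other strand. None of the 4 motifs contains another, and a gene with several start sites had several windows. The Insig2 window printed here holds none of the capitalised motifs. Another annotated Insig2 start site, 121332589 on chromosome 1, has 3 CCAAT matches in its window, and the transcript that begins there (Insig2-202) is listed at 0 counts in all 6 libraries.

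The library totals ran from 13680458 to 27917277 expected counts (the estimated reads per gene), and 54199 to 116165 of them fell on the 28 genes. Levels between libraries are given as CPM, counts scaled to a common library total after adjustment by TMM, where a count of 3 corresponds to 0.1 to 0.223 CPM. For lines 6, 23 and 34 in turn, Trp53 itself had 77.3, 76.3 and 86.5 CPM before and 73.5, 52.5 and 47.4 CPM after the loss, a difference that did not pass (log2 fold change -0.47, edgeR adjusted p 0.227). A count per gene does not tell the Trp53 alleles apart. The 8 epithelial markers summed to 5335 to 6181 CPM in heterozygous and 5255 to 11535 CPM in LOH libraries. The 8 fibroblast markers summed to at most 0.067 CPM in heterozygous and 0.466 to 0.873 CPM in LOH libraries, with Col3a1 and Thy1 at 0 throughout. Of the leukocyte markers Adgre1 and Lyz2 were at 0, and the summed level was 1.93 to 2.37 CPM in heterozygous and 3.26 to 14.9 CPM in LOH libraries, mostly Cd68, a lysosomal protein that other cells also make. Endothelial markers summed to 0.223 to 0.300 CPM in heterozygous and 0.605 to 2.91 CPM in LOH libraries, and acinar markers to 0.567 to 0.816 and 0.868 to 2.39 CPM, with Prss1, Pnlip and Ptf1a at 0. Hepatocyte markers, nearly all of it Ttr, summed to 38.4 to 53.7 and 2.70 to 17.6 CPM, with Cyp7a1 and Serpina1a at 0. The part of such cells in the results was not tested.

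None of the 28 genes passed an adjusted p of 0.05 between LOH and heterozygous libraries (0 of 28; quasi-likelihood test of edgeR, Benjamini-Hochberg over 14537 genes), where 5.21% of all genes tested did (3.55% higher and 1.66% lower in LOH). At an unadjusted p under 0.05 there were 6 of 28 (Mvd, Cyp51, Msmo1, Tm7sf2, Insig2 and Stard4, all higher in LOH), against 25.3% of all genes. With the line as a block 0 of 28 passed, with 4 at an unadjusted p under 0.05 (20% of all genes), where 1.47% of all genes passed. DESeq2 called 2, Insig2 (adjusted p 0.00907) and Tm7sf2 (0.0493), where it called 15.8% of all genes, and limma on log2(TPM + 1) called 0 of 28, against 16% of all genes. The 28 fitted log2 fold changes ran from -0.36 (Hsd17b7) to 1.24 (Insig2). Their median was 0.03, against 0.06 over all genes tested, and 15 of 28 were above 0 (53.6%, against 54% of all genes). Their median size regardless of sign was 0.24, against 0.46 over all genes. All genes tested were not matched to the 28 by expression level, and the part of level in this difference was not tested. A change of at least 2-fold was fitted for 1 of 28, Insig2, and for 20.1% of all genes.

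How far these data bound the changes can be read from the 95% intervals of the fold changes, which come from the model's standard error. The interval lay wholly within a 2-fold change in either direction for 17 of 28 genes, as it did for 33.6% of all genes tested. It did so for 8 of the 9 mevalonate genes, 6 of the 11 post-squalene genes and 3 of the 8 SREBP genes. The median distance from the estimate to the end of the interval was 0.53 log2 units for the 28 genes and 0.75 for all genes. Here too all genes were not matched to the 28 by expression level. The ranges of CPM in the 2 groups did not overlap for 7 of 28 genes, 6 with LOH above (Mvd, Sqle, Cyp51, Tm7sf2, Msmo1 and Insig2) and 1 with LOH below (Hsd17b7), against 32.8% of all genes in either direction. By direction the shares over all genes were 16.4% with LOH above and 16.5% with LOH below. In TPM the split turned: LOH lay wholly above for 1 gene, Insig2, against 7.41% of all genes, and wholly below for 9 (Mvk, Fdps, Fdft1, Lss, Lbr, Nsdhl, Hsd17b7, Ebp and Dhcr7), against 33.3% of all genes.

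**Figure D1:**
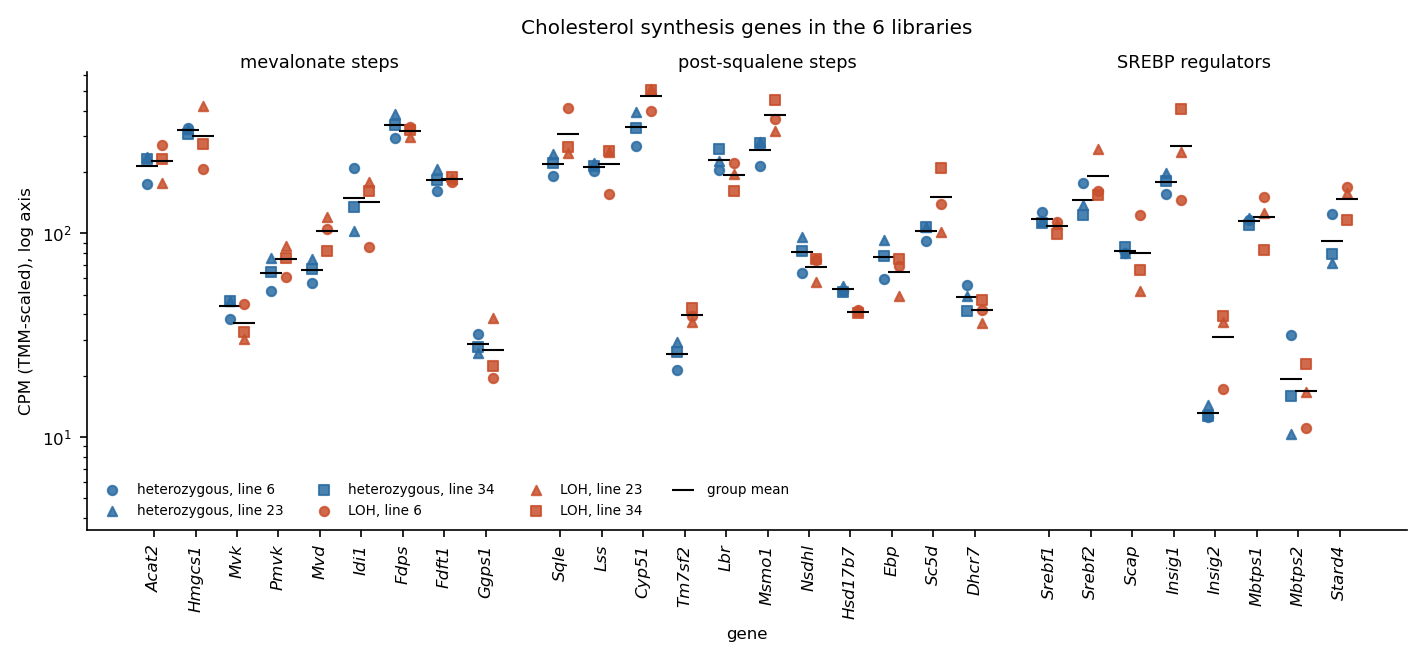
CPM of each gene (log axis) in the 3 heterozygous (blue) and 3 LOH (orange) libraries, with a symbol for each organoid line and a bar at each group mean. The groups are apart in 7 of 28 genes, against 32.8% of all genes tested. Insig2 stands out with 12.5 to 14.3 CPM in heterozygous and 17.2 to 39.4 CPM in LOH libraries.

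Levels between genes were compared in TPM, which is scaled for transcript length. Fdps, which makes farnesyl diphosphate, was the most abundant at a mean of 294 TPM over the 6 libraries (221.7 to 362 TPM), and Msmo1, a methyl sterol oxidase, came next at 176 TPM (157 to 207 TPM). Their ranges did not overlap each other, and Msmo1 did not overlap the third gene. From there down every gene overlapped its neighbour, from Acat2 (107), Cyp51 (106), Hmgcs1 (103) and Sqle (98.5 TPM) to the lowest, Insig2 (11.5) and Mbtps2 (4.81 TPM). The most abundant transcript was thus 61.2 times the least abundant per length. Within a gene the highest library was 1.22 (Cyp51) to 4.34 times (Mbtps2) the lowest.

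The unit matters for the sum over the pathway. In TPM the 28 genes summed to 2014, 1905 and 1864 in the heterozygous libraries of lines 6, 23 and 34 and to 1774, 1594 and 1581 in the LOH libraries, lower in every line. In CPM they summed to 3593, 4021 and 3799 in heterozygous and to 4151, 4385 and 4501 in LOH libraries, higher in every line. The direction of the sum therefore flips with the scaling. TPM divides a fixed total among all transcripts. The median log2 change of all genes tested on that scale was -0.35, against 0.06 in the edgeR fit. The median of the 28 genes on the log2(TPM + 1) scale was -0.39. On each scale the median of the 28 genes thus lay close to that of all genes.

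The first enzymes of the pathway showed no common direction. Acat2, a thiolase that joins acetyl-CoA units, had 175, 238 and 231 CPM in heterozygous and 272, 176 and 232 CPM in LOH libraries, in the order of lines 6, 23 and 34 used from here on. Hmgcs1, the HMG-CoA synthase (ENSMUSG00000093930.2; chromosome 13, 119690379 to 119708260, plus strand of GRCm38), was measured at 330.1, 325 and 307 CPM in heterozygous libraries. Its LOH libraries had 207, 421 and 274 CPM, the lowest in line 6 and the highest in line 23, on either side of the heterozygous range. The means were 320.5 ± 12.1 CPM (heterozygous) and 300.5 ± 109 CPM (LOH), each with the SD of 3 libraries. Its log2 fold change of -0.09 (standard error 0.27, adjusted p by edgeR 0.854) had an interval from -0.73 to 0.55. The lines lay further apart after the loss than before it.

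Of the 3 enzymes that phosphorylate and decarboxylate mevalonate, Mvd had the lowest p. Mvd, the decarboxylase (ENSMUSG00000006517.5; chromosome 8, 122433601 to 122443422, minus strand), had 57.1, 75.1 and 66.8 CPM in heterozygous and 105, 119.8 and 81.9 CPM in LOH libraries. Every LOH library lay above every heterozygous one. The log2 fold change was 0.63 (SE 0.21), with an interval from 0.13 to 1.12 and an edgeR adjusted p of 0.124, and it was 0.22 on the log2(TPM + 1) scale. Mvk, the first kinase, had 38.1, 46.5 and 46.5 against 45.2, 30.4 and 32.6 CPM. Pmvk, the second kinase, had 52.2, 75.8 and 64.2 against 60.7, 86.7 and 75.8 CPM, with nearly the same log2 ratio in each line (0.22, 0.19 and 0.24). Mvk was lower after the loss in lines 23 and 34, and neither kinase passed (log2 fold changes -0.28 and 0.22, edgeR adjusted p 0.457 and 0.57).

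Idi1, the isomerase that balances the isoprenoid units (ENSMUSG00000058258.14; chromosome 13, 8885501 to 8892451, plus strand), varied most among the mevalonate enzymes. It had 209, 103 and 134 CPM in heterozygous and 85.9, 179 and 161 CPM in LOH libraries. It was lower after the loss in line 6 and higher in lines 23 and 34, with log2 ratios of -1.28, 0.80 and 0.27. Ggps1, which makes geranylgeranyl diphosphate for prenylation, had 32.1, 25.8 and 27.6 and 19.4, 38.4 and 22.3 CPM. Fdps had 293, 386 and 339 and 332, 297 and 321 CPM. Fdft1, squalene synthase and the first enzyme committed to sterols (ENSMUSG00000021273.10; chromosome 14, 63145150 to 63179578, minus strand), had the fold change nearest to 0 of the group, with 160.4, 206 and 182 CPM in heterozygous and 178, 185 and 188 CPM in LOH libraries. The Fdft1 means were 183 ± 22.8 CPM (heterozygous) and 184 ± 4.94 CPM (LOH), each with the SD of 3 libraries, the log2 fold change 0.01 (standard error 0.17, adjusted p by edgeR 0.984) and its interval -0.39 to 0.41, within 1.5-fold either way. Signs of changes this small turn with the scaling: on the log2(TPM + 1) scale they were -0.33 for Fdft1, -0.31 for Acat2 and -0.17 for Pmvk. Over the 9 mevalonate genes the median log2 fold change was -0.07 (-0.49 on the log2(TPM + 1) scale) and the medians in the lines 0.18, 0.19 and 0.01. Of the 9 genes 7 had lines of both signs.

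**Figure D2:**
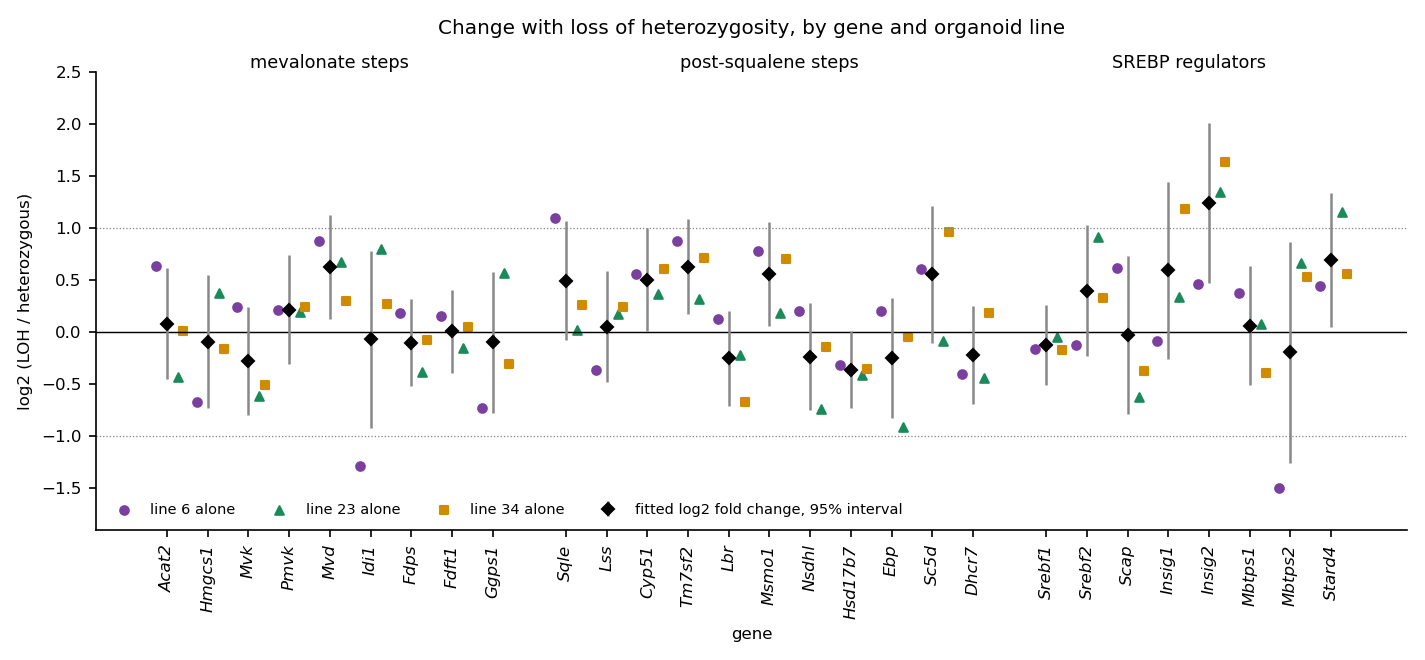
Log2 ratio of LOH to heterozygous for each gene. Black diamonds are the edgeR fits with 95% intervals, coloured symbols the single lines, and dotted lines a 2-fold change. Most intervals cross 0, Insig2 lies highest at 1.24, and line 6 lies apart from the other lines for Idi1 and Mbtps2.

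The post-squalene steps included 4 enzymes of 11 (Sqle, Cyp51, Msmo1 and Tm7sf2) whose CPM was higher in every LOH library than in any heterozygous one, though none passed the test. Of all genes tested 16.4% had LOH wholly above in CPM. On the log2(TPM + 1) scale their log2 fold changes were 0.07 for Sqle, 0.08 for Cyp51, 0.17 for Msmo1 and 0.09 for Tm7sf2. Sqle, squalene epoxidase (ENSMUSG00000022351.14; chromosome 15, 59315077 to 59331192, plus strand), had 191, 244 and 220.1 CPM in heterozygous and 409.6, 247 and 265 CPM in LOH libraries. The distance between the groups was small, and the difference was largest in line 6. The means were 218 ± 26.2 CPM (heterozygous) and 307 ± 89.2 CPM (LOH), each with the SD of 3 libraries and the log2 fold change 0.49 (standard error 0.24, adjusted p by edgeR 0.254), which was 0.19 without the LOH library of line 6. Lss, lanosterol synthase (ENSMUSG00000033105.12; chromosome 10, 76531588 to 76557138, plus strand), had 201, 220.1 and 214 and 156, 249 and 253 CPM, with the LOH library of line 6 below and those of lines 23 and 34 above the heterozygous range. The Lss means were 212 ± 9.75 CPM (heterozygous) and 219 ± 55.2 CPM (LOH), each with the SD of 3 libraries, with a log2 fold change of 0.05, or -0.45 on the log2(TPM + 1) scale (standard error 0.23, adjusted p by edgeR 0.909).

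Cyp51, the sterol demethylase that acts on lanosterol (ENSMUSG00000001467.5; chromosome 5, 4081145 to 4104746, minus strand), had 269, 395 and 329 CPM in heterozygous and 396, 509 and 503 CPM in LOH libraries. The highest heterozygous library, line 23, nearly reached the lowest LOH library, line 6, but within each line the LOH library was higher (log2 ratios 0.56, 0.37 and 0.61). The fitted log2 fold change was 0.50 (standard error 0.21, edgeR adjusted p 0.192). Msmo1, which starts removal of the methyl groups, had 213, 280.4 and 278 and 365, 318 and 453 CPM, a log2 fold change of 0.56 (interval 0.06 to 1.05, edgeR adjusted p 0.157). Its line ratios were all above 0, at 0.78, 0.18 and 0.70. The next enzymes of that removal lay on the other side: Nsdhl, a sterol dehydrogenase, had 64, 95.8 and 82.1 and 73.8, 57.3 and 74.5 CPM, and Hsd17b7, a ketosteroid reductase, 52.1, 55.2 and 51.5 and 41.9, 41.6 and 40.4 CPM. Every LOH library of Hsd17b7 lay below every heterozygous one, with little spread in either group. Its log2 fold change was -0.36 (standard error 0.16, interval -0.73 to 0.01, adjusted p by edgeR 0.211).

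Tm7sf2 and Lbr encode sterol reductases for the step after Cyp51, and Lbr also anchors chromatin at the nuclear lamina. Tm7sf2 (ENSMUSG00000024799.14; chromosome 19, 6062821 to 6068373, minus strand) had 21.4, 29.4 and 26.2 CPM in heterozygous and 39.3, 36.6 and 42.9 CPM in LOH libraries. The groups did not overlap, and the ratio was above 0 in every line. Its log2 fold change was 0.63 (standard error 0.19, interval 0.17 to 1.08, adjusted p by edgeR 0.102). Vps51 overlaps Tm7sf2 on the same strand in the annotation, and reads from that overlap are divided by estimate. Lbr had 203, 227 and 259 and 222, 195 and 162 CPM (log2 fold change -0.25, edgeR adjusted p 0.449). Within a library the ratio of both transcripts does not depend on the scaling: Tm7sf2 made up 21.7%, 27% and 21.7% of their joint TPM in heterozygous and 30.7%, 32.6% and 39.9% in LOH libraries. The shares of the groups did not overlap. An exact two-sided permutation test of the log2 ratio gave p = 0.1, the smallest that 3 against 3 libraries allow, and 0.25 after adjustment over the 5 gene pairs compared. Here and below this test took the libraries as unpaired and left the organoid line out.

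The last steps were mixed. Ebp, the sterol isomerase, had 59.9, 92.4 and 77.2 and 69, 49.2 and 74.8 CPM, with the LOH library of line 23 the lowest. Sc5d, a desaturase, had 91.4, 108 and 107 and 139, 102 and 209.6 CPM, with line 34 the highest after the loss (log2 fold change 0.56, or 0.11 on the log2(TPM + 1) scale, edgeR adjusted p 0.262). Dhcr7, the reductase that completes cholesterol by one route, had 55.7, 49.2 and 41.4 and 42, 36.3 and 47.2 CPM, overlapping in part (log2 fold change -0.22). For Ebp and Nsdhl the log2 fold changes were -0.25 and -0.23, with edgeR adjusted p-values of 0.551 and 0.527. Over the 11 post-squalene genes 6 lay above 0 and 5 below, the median was 0.05 (-0.45 on the log2(TPM + 1) scale), and 5 had the same sign in all 3 lines.

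The transcripts of the SREBP factors showed no change that passed. Srebf1 (ENSMUSG00000020538.15; chromosome 11, 60199089 to 60222581, minus strand) had 127, 115 and 112 CPM in heterozygous and 113, 112 and 99.2 CPM in LOH libraries. The values of the groups overlap and lie close together. The means were 118 ± 7.77 CPM (heterozygous) and 108 ± 7.73 CPM (LOH), each with the SD of 3 libraries, with a log2 fold change of -0.13 (standard error 0.16, interval -0.51 to 0.26, adjusted p by edgeR 0.654). Srebf2 (ENSMUSG00000022463.7; chromosome 15, 82147181 to 82205379, plus strand) had 177, 138 and 123 CPM in heterozygous and 162, 260.4 and 154 CPM in LOH libraries, of which line 23 was the highest. The means were 146 ± 27.9 CPM (heterozygous) and 192 ± 59.5 CPM (LOH), each with the SD of 3 libraries, with a log2 fold change of 0.40 (standard error 0.27, interval -0.23 to 1.03, adjusted p by edgeR 0.386), which was 0.11 without the LOH library of line 23 and -0.02 on the log2(TPM + 1) scale. Of the joint TPM, Srebf1 made up 55.7%, 58.7% and 61.2% in heterozygous and 57.2%, 43.6% and 52.2% in LOH libraries, with the LOH library of line 6 inside the heterozygous range (exact two-sided permutation p = 0.2, adjusted 0.333 over 5 pairs). Transcript counts say nothing of how much of either protein was cleaved.

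Insig2 had the largest fitted change of the 28 genes. Insig2 (ENSMUSG00000003721.14; chromosome 1, 121304353 to 121332589, minus strand) had 12.5, 14.3 and 12.7 CPM in heterozygous libraries, a narrow range, and 17.2, 36.5 and 39.4 CPM in LOH libraries. In CPM all 3 LOH libraries lay above the heterozygous ones, line 6 by little and lines 23 and 34 by more than 2-fold. The means were 13.2 ± 1.01 CPM (heterozygous) and 31 ± 12 CPM (LOH), each with the SD of 3 libraries, with a log2 fold change of 1.24 (SE 0.33, interval 0.47 to 2.01). The edgeR adjusted p was 0.0742, short of 0.05, at an unadjusted p of 0.00644, and 0.147 with the line as a block. It passed without the LOH library of line 6 (log2 fold change 1.49, adjusted p 0.0146, where 16.2% of all genes passed) and without both libraries of line 6 (0.0389, where 9.66% passed). Without any 1 of the heterozygous libraries edgeR called 0 genes of all those tested, with 2272 to 2966 at an unadjusted p under 0.05. Over the 18 alternatives its adjusted p ran from 0.00907 to 0.373.

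Its paralog Insig1 (ENSMUSG00000045294.11; chromosome 5, 28071363 to 28078662, plus strand), itself an SREBP target and so a transcript that reports on the pathway, had 155, 198 and 179.7 CPM in heterozygous and 146, 251 and 408 CPM in LOH libraries. Line 6 was slightly lower after the loss and line 34 more than 2-fold higher, so the groups overlap. The means were 178 ± 21.6 CPM (heterozygous) and 268 ± 132 CPM (LOH), each with the SD of 3 libraries, with a log2 fold change of 0.59 (standard error 0.36, adjusted p by edgeR 0.342), which was 0.15 without the LOH library of line 34 and 0.08 on the log2(TPM + 1) scale. Insig1 remained the main form by transcript, with 85.4, 86.1 and 83.5 TPM against 8.8, 6.32 and 6.49 TPM for Insig2 in heterozygous libraries. The LOH libraries had 58.6, 91.6 and 135 TPM of Insig1 and 9.39, 17 and 20.7 TPM of Insig2. Its share of their joint TPM was 90.7%, 93.2% and 92.8% in heterozygous and 86.2%, 84.3% and 86.7% in LOH libraries. The shares of the groups did not overlap and were lower after the loss in every line. The difference of the log2 ratio was -0.99, from 3.58 ± 0.26 to 2.59 ± 0.15 (SD, n = 3 each; exact two-sided permutation p = 0.1, the smallest possible, adjusted 0.25 over 5 pairs).

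**Figure D3:**
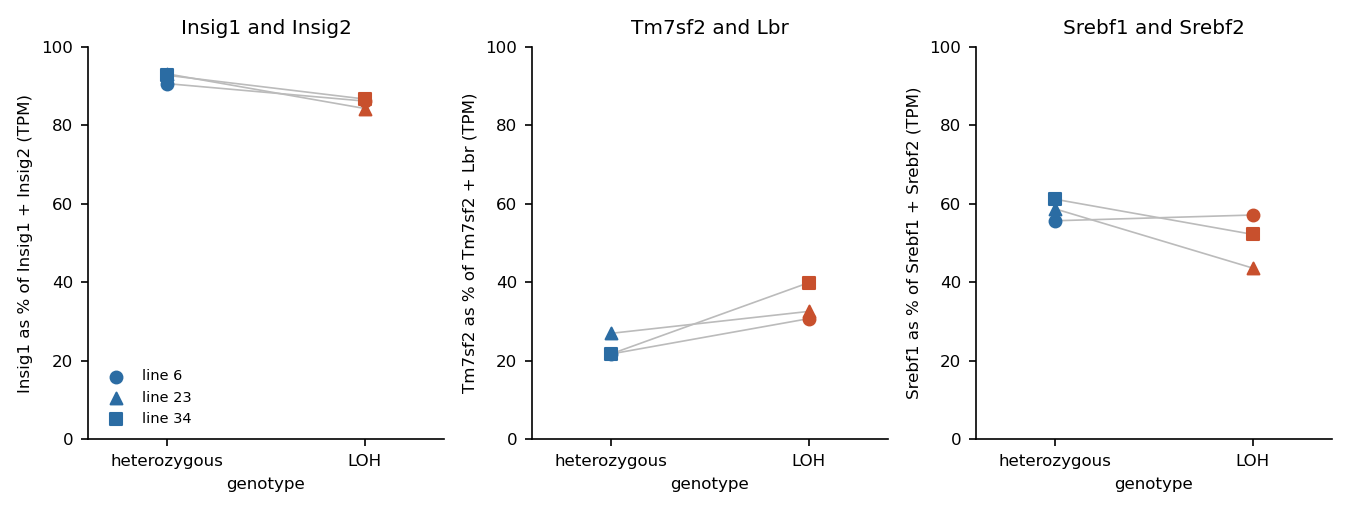
Share of the first gene in the joint TPM of 3 gene pairs, in percent, for each library; grey lines join the libraries of 1 organoid line. Insig1 holds 90.7 to 93.2% in heterozygous and 84.3 to 86.7% in LOH libraries, Tm7sf2 lies higher in each LOH library, and Srebf1 overlaps between the genotypes.

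Stard4, a carrier that moves cholesterol between membranes and an SREBP target, had 124, 71.2 and 78.7 CPM in heterozygous and 169, 158 and 116 CPM in LOH libraries. The heterozygous library of line 6 reached into the LOH range, while each line was higher after the loss (log2 ratios 0.44, 1.15 and 0.56). The means were 91.4 ± 28.7 CPM (heterozygous) and 148 ± 27.9 CPM (LOH), each with the SD of 3 libraries, with a log2 fold change of 0.69 (standard error 0.27, interval 0.05 to 1.33, adjusted p by edgeR 0.17), and 0.07 on the log2(TPM + 1) scale. Scap had 80.3, 80.2 and 85.3 CPM in heterozygous and 123, 51.9 and 65.8 CPM in LOH libraries. The heterozygous libraries were nearly level and the LOH libraries lay on either side of them. Of the Golgi proteases, Mbtps1 had 117, 119 and 109 and 151, 126 and 82.9 CPM. Mbtps2 had 31.5, 10.4 and 15.8 and 11.1, 16.5 and 22.9 CPM, with the heterozygous library of line 6 the highest of all. None of these 3 passed, at edgeR adjusted p-values of 0.966, 0.898 and 0.813. The median over the 8 SREBP genes was 0.23 (-0.16 on the log2(TPM + 1) scale), with 0.14, 0.50 and 0.43 in the lines.

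The transcript tables split the genes further, by estimate where reads fit several transcripts. Most Insig2 signal came from Insig2-201, a coding transcript of 225 codons whose start at 121328024 is the one printed above. It had 5.74, 5.72 and 4.63 TPM in heterozygous and 5.77, 11.4 and 10.8 TPM in LOH libraries. Line 6 had nearly the same TPM in both genotypes, and lines 23 and 34 were higher after the loss. On the log2(TPM + 1) scale the median change of all genes tested was -0.35, so TPM compared between genotypes here carries that shift. In CPM the whole Insig2 gene had 12.5 (heterozygous) and 17.2 (LOH) in line 6. Insig2-201 held 65.2, 90.5 and 71.4% of the gene in heterozygous and 61.5, 67.1 and 52.3% in LOH libraries, and the rest went to shorter annotated transcripts. Insig1-201 had 76.1, 79.2 and 74.6 TPM in heterozygous and 52.8, 82.7 and 124 TPM in LOH libraries, and the rest of Insig1 was a retained intron form at 9.28, 6.92 and 8.92 and 5.86, 8.86 and 11.3 TPM. Among 12 annotated Srebf1 transcripts the leading one was Srebf1-201, of 1134 codons, with 43.5, 43.9 and 40.9% of the gene in heterozygous and 34.3, 45 and 46.4% in LOH libraries. Srebf1-207, of 1022 codons from a start further into the gene, had 9.72, 9.9 and 11.1 TPM in heterozygous and 9.23, 5.49 and 5.88 TPM in LOH libraries. Sqle-201 held 97.9, 98.3 and 97.8% of Sqle in heterozygous and 97.8, 98.2 and 98.6% in LOH libraries, and Srebf2 had 1 transcript.

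With libraries paired by their titles, the organoid lines differed in sign for most of the 28 genes. Over all genes tested, deviations from the group means correlated at only -0.30 and 0.01 within lines 6 and 23. Across these lines they correlated at 0.30 (heterozygous line 6 with LOH line 23) and 0.25 (heterozygous line 23 with LOH line 6). The ratios below rest on the titles alone for the pairing. The signs of the 3 lines agreed for 10 of 28 genes, 8 higher and 2 lower, against 44.5% of all genes tested. In line 6 the genes lowest after the loss were Mbtps2, Idi1, Ggps1 and Hmgcs1, and in line 23 the same 4 were higher, at log2 ratios of 0.67, 0.80, 0.57 and 0.37. Hmgcs1, Idi1 and Ggps1 all lie on chromosome 13, where the other 601 tested genes had medians of -0.55, -0.07 and -0.66 in lines 6, 23 and 34. Less the chromosome's median, the log2 ratios were -0.13, 0.45 and 0.50 for Hmgcs1. They were -0.74, 0.87 and 0.93 for Idi1 and -0.18, 0.64 and 0.35 for Ggps1. All 3 thus lay below their chromosome in line 6 and above it in lines 23 and 34. Mbtps2 lies on the X chromosome, whose medians were -0.27, -0.11 and 0.21. Of the 8 genes higher in all lines, Pmvk, Sqle and Tm7sf2 lay below their chromosome's median in line 23, by -0.10, -0.16 and -0.16. Pmvk did so in line 34 as well (-0.03). Mvd, Cyp51, Msmo1, Insig2 and Stard4 lay above theirs in every line. The part of the chromosome in these ratios was not tested.

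**Figure D4:**
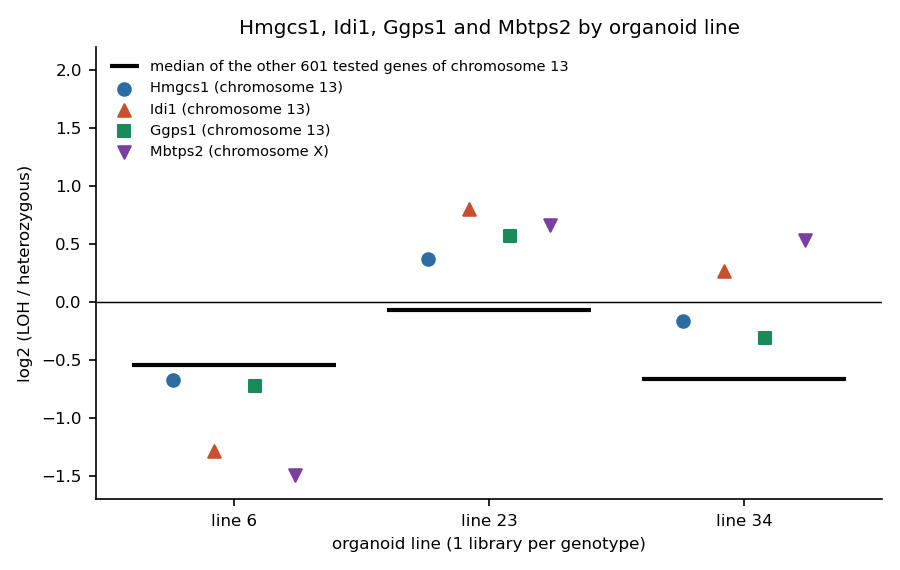
Log2 ratio of LOH to heterozygous in each organoid line for 3 genes of chromosome 13 and for Mbtps2; black bars are the median of the other 601 tested genes of chromosome 13. With libraries paired by their titles alone, all 4 genes are below 0 in line 6 and above 0 in line 23. The 3 chromosome 13 genes lie above the bar in lines 23 and 34.

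Base composition was set beside the ratios. Over the 28 genes Spearman's rho between the GC content of the longest transcript and the log2 ratio was 0.34, -0.30 and -0.18 for lines 6, 23 and 34, against 0.28, -0.15 and -0.13 over 14521 genes. The points of a line share 2 libraries, and the part of GC content in the result was not tested. The members' line ratios were more alike between lines 23 and 34 (rho 0.59) than between lines 6 and 23 (-0.11), as they were over all genes (0.66 and 0.17).

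Genes next to the pathway were described from lists of 65 genes, of which 64 passed the filter and 1, Sec23a, passed the test. Sec23a encodes a subunit of the vesicle coat that carries cargo, Scap with SREBP among it, out of the endoplasmic reticulum. It had 29.1, 34.6 and 33.6 CPM in heterozygous and 70.0, 75.5 and 79 CPM in LOH libraries. The groups were well apart, and the lines gave nearly the same ratio (1.27, 1.12 and 1.23). It rose by a log2 fold change of 1.21 (standard error 0.17, adjusted p by edgeR 0.0198). The edgeR adjusted p was 0.0745 with the line as a block, where 1.47% of all genes passed. It was 0.102 to 0.134 without any 1 of the heterozygous libraries. Without both libraries of line 23 or line 34 it was 0.17 or 0.163. These fits with libraries left out called 0 of all genes tested, so the lost call is not particular to Sec23a. The call held without the LOH library of line 6, 23 or 34 (0.0165, 0.0369 and 0.0304). It also held without both libraries of line 6 (0.039). DESeq2 gave 6.6e-08, where it called 15.8% of all genes.

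The branch that uses isoprenoids for prenylation, dolichol and quinones had 0 of 15 genes that passed and 4 with an unadjusted p under 0.05, with a median log2 fold change of -0.25 and 11 of 15 below 0. For this list and those that follow, the shares over all genes tested were 5.21% passed, 25.3% at an unadjusted p under 0.05 and 46% below 0, with a median of 0.06. In 6 of the 15 the LOH libraries lay wholly below the heterozygous ones, against 16.5% of all genes tested. Of 12 genes of sterol-regulated degradation 0 passed (3 unadjusted, median 0.20), and of 10 fatty acid genes that SREBP1 drives 0 passed (4 unadjusted, median -0.04). Of the 6 tested genes of the oxysterol receptors and their targets 0 passed (1 unadjusted, median 0.08), and of the 11 partners of SREBP 1 passed (4 unadjusted, median 0.05). Of 10 cell cycle genes 0 passed, with 3 unadjusted, and 8 lay below 0, with a median of -0.56. The signs of the 3 lines agreed for 4 of the 10, all lower, against 44.5% of all genes tested in either direction. The other 6 had lines of both signs. Growing cells need cholesterol for membranes, and the part of growth in the values above was not tested.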

How the data were processed

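The deposited tables hold the authors' expected counts (reads assigned by estimate) and TPM for genes and transcripts, and the percent of a gene's abundance for each transcript. Deposited tables of a normalized signal, which list gene names, gave no tested value. FastQC 0.11.5, STAR 2.5.2b, RSEM 1.3.0, DESeq2 1.44.0 and GRCm38.p5 are named in the submitters' processing notes, per the labels the kit keeps strand, and the strand setting of the counting is not given in the sources used here. In the annotation 12 of the 28 genes overlap a gene on the opposite strand (among them Hmgcs1, Idi1, Mvd, Fdft1, Ggps1, Lss, Cyp51, Srebf1, Scap and Insig2), so reads from both may be mixed. Reads that fit several genes are divided by estimate, and near-identical copies were not searched for. Coordinates are those of GENCODE M21 (GRCm38).

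Rounded counts passed filterByExpr and TMM scaling. edgeR 4.0.16 (R 4.3.3) then gave quasi-likelihood p-values, two-sided, adjusted by Benjamini-Hochberg over 14537 genes at 0.05. A prior count of 2 went into the log2 ratio of each line. The standard error is the size of the fold change on the log2 scale over the root of its F, and intervals use its degrees of freedom. The fit was tested on simulated data. It was repeated with scaling by RLE or upper quartile, unfiltered, with a minimum of 10 counts per library, on the protein-coding genes, with the line as a block, and without each library and line. DESeq2 1.42.0 and limma 3.58.1 were run too, the latter on TPM with a pseudocount of 1 or 0.1, for genes that reached 1 TPM in 3 libraries.

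Titles place same-numbered libraries in 1 organoid line, which makes them pairs. Deviations from the group means correlated at -0.30, 0.01 and 0.29 in lines 6, 23 and 34. Between lines they correlated at 0.30 for heterozygous line 6 with LOH line 23, and at 0.25 for heterozygous line 23 with LOH line 6. For these lines the values within a line were thus the lower ones. The other values between lines ran from -0.39 to 0.06. The ratios by line rest on the titles alone for the pairing. All 28 genes are named, with full statistics for 9 of them whatever their p and for any that passed, and genes of the other lists are named where they passed. The 28 genes and the lists were chosen with earlier results of these data known. Intervals cover the spread between libraries, and counting error is a part of it. A part of the genotype that both groups share, and a marker gene, are not reported here.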

Additional observations from a re-analysis of the deposited data

Results flagged for a closer look

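In 4 of the 28 genes organoid lines had log2 ratios on both sides of 0, each by at least 0.5. The share of all genes tested that did so was not counted, so the 4 are not shown to be unusual. Of all genes tested 44.5% had the same sign in all 3 lines. With 1 library of each genotype in a line, the difference between lines was not tested. The pairing of libraries within a line rests on the titles alone. From the lowest to the highest line the ratio spanned 2.16 for Mbtps2 (log2 ratios -1.50, 0.67 and 0.53 in lines 6, 23 and 34) and 2.08 for Idi1 (-1.28, 0.80 and 0.27). It spanned 1.3 for Ggps1 (-0.73, 0.57 and -0.31) and 1.25 for Scap (0.62, -0.63 and -0.37). Mbtps2, Idi1 and Ggps1 were lower in line 6 and higher in line 23, and Scap the reverse. The heterozygous libraries differed as well for Mbtps2, with 31.5, 10.4 and 15.8 CPM, and for Idi1, with 209, 103 and 134 CPM, but little for Scap, with 80.3, 80.2 and 85.3 CPM.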

How the results depend on the processing

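Over 18 alternatives the number of the 28 genes called was 2 with DESeq2, 0 to 1 when libraries were left out and 0 in the others. The replicate block gave 0 of 28, as the main fit did, so there was no call for it to remove. In the wider lists of 65 genes the count was 1 and became 9 with DESeq2, 18 and 17 with limma on log2(TPM + 1) and log2(TPM + 0.1), 0 with the block, and 0 to 12 when libraries were left out. Over all genes tested it was 757 (5.21%), against 2290 with DESeq2 (15.8%) and 213 with the block (1.47%). With limma it was 1911 and 1753 (16% and 14.7% of 11918 genes). It was 0 without any 1 of the heterozygous libraries or without line 23 or 34. Without the LOH library of line 6 it was 2449 (16.2%), and without line 6 it was 1422 (9.66%). On the TPM scales the median was -0.486 and -0.494 for the mevalonate, -0.449 and -0.456 for the post-squalene and -0.158 and -0.164 for the SREBP genes, where all genes had -0.35 and -0.42. The mevalonate median spanned -0.11 to 0.0457 with 1 library left out and was 0.11 without line 6 and 0.0456 without line 23, and the SREBP median was 0.60 without line 6. With 1 library left out the post-squalene median spanned -0.069 (without the LOH library of line 34) to 0.19 (without that of line 6), and the SREBP median 0.15 (without heterozygous line 34) to 0.40 (without heterozygous line 6).

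Of 504 values of single genes under an alternative 451 kept their direction and their side of the threshold, 4 newly passed, and 49 changed sign, over 14 genes; the cause was not tested. Fdft1 was -0.0033 with RLE, -0.0165 with upper quartile scaling, -0.0277 without a filter and -0.0029 with DESeq2. On the log2(TPM + 1) and log2(TPM + 0.1) scales the values were -0.33 and -0.33 for Fdft1, -0.31 and -0.31 for Acat2, -0.17 and -0.17 for Pmvk, -0.45 and -0.46 for Lss, -0.0195 and -0.0202 for Srebf2, and -0.30 and -0.31 for Mbtps1. With 1 library left out, Acat2 spanned -0.11 to 0.23, Fdft1 spanned -0.11 to 0.0945, Ggps1 spanned -0.45 to 0.0457, Hmgcs1 spanned -0.42 to 0.0748, Idi1 spanned -0.28 to 0.23, Lss spanned -0.069 to 0.21, Mbtps1 spanned -0.18 to 0.26, Mbtps2 spanned -0.50 to 0.33 and Scap spanned -0.52 to 0.21. The log2 fold changes of the other sign were, without both libraries of line 6, Acat2 -0.23, Hmgcs1 0.11, Idi1 0.49, Fdft1 -0.0846, Ggps1 0.15, Mbtps1 -0.16 and Mbtps2 0.55. They were, without both libraries of line 23, Fdps 0.0456, Lss -0.0233, Nsdhl 0.0195, Ebp 0.0678 and Scap 0.19. They were, without both libraries of line 34, Fdft1 -0.0142, Lss -0.0595 and Scap 0.12.

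With 3 libraries a group the median 95% interval, not adjusted for the number of genes, reached 0.53 log2 units to either side. After adjustment fold changes above that size also did not pass, such as 0.69 for Stard4 and 1.24 for Insig2.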
